A study of Mus musculus with 6 samples.

Results

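The genes described are the chemokines and chemokine receptors of mouse dorsal skin, taken as every gene in the deposited table whose symbol starts with Ccl, Cxcl, Ccr, Cxcr or Ackr and a digit, together with Cx3cl1, Cx3cr1, Xcl1 and Xcr1. This gave 62 of the 21959 genes in the table. They were 24 CC ligands, 13 CXC ligands, 2 ligands of the C and CX3C kinds, 11 CC receptors, 8 CXC and other receptors and 4 atypical receptors. The choice used names alone and no measured value.

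Chemokines are small secreted proteins that steer the movement of leukocytes along a gradient, and their classes are named for the spacing of their first cysteines. Their receptors span the membrane several times and signal through inhibitory G proteins, while the atypical receptors bind chemokines without that signal and clear or transport them. In skin, chemokines from keratinocytes, fibroblasts, endothelium and resident macrophages place Langerhans cells, T cells and monocytes, and Cxcl12 made by mesenchymal cells is a homing and retention signal.

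The libraries came from male C57BL/6 mice, 7 weeks old and shaved on the back while their hair follicles were in telogen, the resting stage of the hair cycle. In the vehicle group (n = 3), skin received a mixture of 30% dipropylene glycol and 70% water each day for 7 days, and in the rebamipide group (n = 3) it received 3% rebamipide on the same schedule. Rebamipide is a drug that protects the gastric mucosa. Full-thickness skin was sequenced as poly(A) RNA, so each library mixes epidermis, dermis, fat, vessels and any muscle in the piece.

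The libraries held 38676018 to 39915276 counts in the vehicle group and 32709801 to 34706852 in the rebamipide group, and a limit of 3 counts corresponded to 0.0752 to 0.0917 CPM, the unit of level used here (counts scaled to a common library size, with TMM factors). Mitochondrial genes took 2.59% to 5.36% of the counts with vehicle and 13.28% to 21.96% with rebamipide. Rebamipide 3 stood apart, because the keratinocyte marker Krt14 was at 0 counts there, and Krt5 at 4, in tissue labelled as skin. The summed level of 5 keratinocyte markers was 2310, 6210 and 6500 CPM in vehicle 1, 2 and 3 and 1860, 1100 and 2.18 CPM in rebamipide 1, 2 and 3. The 4 brown adipocyte markers summed to 25.3 to 80.2 CPM with vehicle and 4250 to 11800 CPM with rebamipide. Of the other marker lists, 3 of 5 adipocyte, 3 of 4 blood, 1 of 3 venule and 1 of 2 B cell markers tested rose, 1 of 3 neutrophil markers fell, and 0 of 4 mast cell, 6 fibroblast, 4 skeletal muscle and 1 lymph node markers passed. The part of these tissues in the results below was not tested, and in bulk tissue fewer cells of a type and less RNA per cell cannot be told apart.

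Of the 62 genes, 46 passed the filter on low counts. At an adjusted p-value under 0.05 (edgeR's quasi-likelihood test), Cxcl9, Ccr10 and Ackr3 rose with rebamipide and Ccr2 fell. The 3 that rose were 6.52% of the 46, where 14.1% of the 14875 genes tested rose, and the 1 that fell was 2.17%, where 6.51% of all genes fell. Neither share was above that of the whole table. Without rebamipide 3, the genes called of 49 tested were Cxcl9, higher, and Ccr4, lower, where 6.60% of all genes were called higher and 2.49% lower. Without vehicle 2 or without rebamipide 2, 0 of these genes passed in edgeR, as did 0 and 1 genes of the whole table. At an unadjusted p under 0.05 there were 6 and 8 of 48, where 27.5% and 26.5% of all genes were. With all libraries DESeq2 called 4 of the 46 higher (8.70%, against 18.3% of all genes) and 8 lower (17.4%, against 17.0%). The 8 were Cxcl14, Cxcr2, Ccr4, Cxcr6, Ccr2, Xcr1, Ccl27a and Ackr4, of which edgeR called Ccr2. On the same libraries limma-voom called 3 higher (6.52%, against 14.4%) and 1 lower (2.17%, against 6.94%). Without vehicle 2, DESeq2 called 3 of 48 higher and 1 lower, where 14.0% and 9.48% of all genes were called. Without rebamipide 2 it called 4 of 48 higher and 8 lower, where 17.5% and 14.8% of all genes were. Either omission left limma-voom with Cxcl9 alone, where 1.40% and 1.67% of all genes were called higher.

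The fold changes of the 46 genes leaned downward. The median log2 fold change was -1.06, with 39 genes negative and 7 positive, beside a median of -0.175 over all genes tested, of which 8466 were negative and 6409 positive. With 1 library left out, the median of the chemokine and receptor genes ran from -1.67 (without rebamipide 1) to -0.54 (without vehicle 3). The study used DESeq2 with an unadjusted p under 0.05 and a log2 fold change beyond 1 either way. With these thresholds applied to the edgeR fit instead, 10 genes (21.7%) were lower where 14.5% of all genes were. At the same thresholds 4 (8.70%) were higher where 14.3% were. The groups did not overlap for 6 genes that were higher with rebamipide (13.0%, against 24.5% of all genes) and for 7 that were lower (15.2%, against 24.0%). Scaling by total counts alone moved the median of all genes to -0.778 and that of these genes to -1.60, so directions are given relative to the TMM scale used here.

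**Figure D1:**
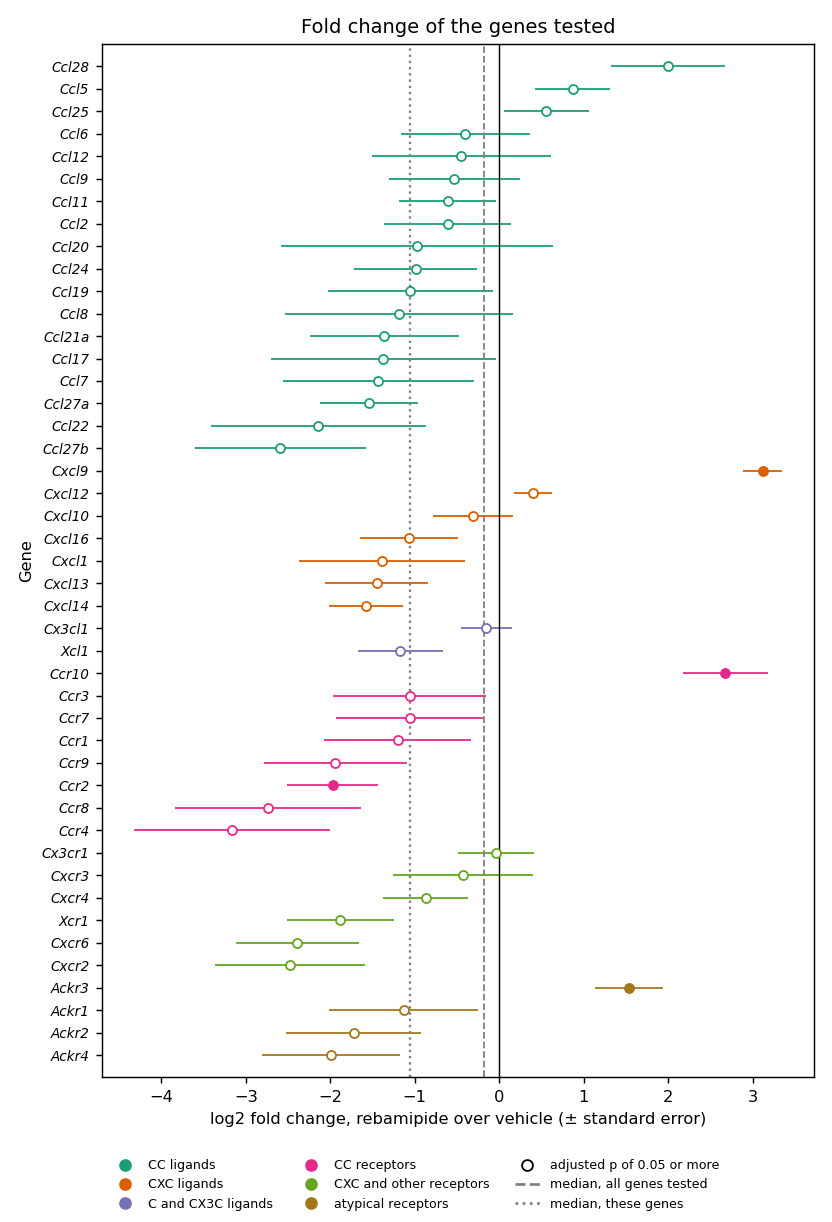
The log2 fold change of 45 of the genes tested, rebamipide over vehicle, is plotted on the horizontal axis with its standard error, grouped and coloured by role. Filled points are the 4 genes with an adjusted p under 0.05 (Cxcl9, Ccr10, Ackr3 and Ccr2), and most points lie left of 0, around the dotted median of -1.06.

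The results turn on a few genes, and the 250 bases upstream of the RefSeq transcription start (build GRCm38.p6, printed in the direction of the gene) are shown for Cxcl9 and its neighbour Cxcl10, whose groups overlapped, and for Ackr3 and Ccr2, which moved in opposite directions. The windows are chr5:92328080-92328329 on the minus strand for Cxcl9, chr5:92348890-92349139 on the minus strand for Cxcl10, chr1:90203730-90203979 on the plus strand for Ackr3 and chr9:124101933-124102182 on the plus strand for Ccr2. Capitals mark exact matches, on either strand, to the interferon-stimulated response element GAAANNGAAA, the gamma-activated sequence TTCNNNGAA, the NF-kB site GGGNNNTTCC or the TATA box TATAAA, and no marked match shares bases with another.
Cxcl9: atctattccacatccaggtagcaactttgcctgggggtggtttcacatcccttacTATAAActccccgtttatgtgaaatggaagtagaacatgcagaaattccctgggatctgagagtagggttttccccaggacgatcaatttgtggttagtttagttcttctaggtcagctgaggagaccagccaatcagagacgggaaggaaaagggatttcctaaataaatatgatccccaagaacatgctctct
Cxcl10: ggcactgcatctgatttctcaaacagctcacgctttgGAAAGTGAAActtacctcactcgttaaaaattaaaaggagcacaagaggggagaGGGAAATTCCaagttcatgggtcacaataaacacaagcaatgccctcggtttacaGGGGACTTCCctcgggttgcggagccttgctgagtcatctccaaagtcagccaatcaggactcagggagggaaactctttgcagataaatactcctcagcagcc
Ackr3: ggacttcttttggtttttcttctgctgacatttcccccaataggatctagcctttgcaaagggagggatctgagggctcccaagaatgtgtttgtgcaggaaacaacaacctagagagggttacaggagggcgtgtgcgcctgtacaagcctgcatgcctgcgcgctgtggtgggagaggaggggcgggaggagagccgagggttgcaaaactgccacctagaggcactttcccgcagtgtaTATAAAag
Ccr2: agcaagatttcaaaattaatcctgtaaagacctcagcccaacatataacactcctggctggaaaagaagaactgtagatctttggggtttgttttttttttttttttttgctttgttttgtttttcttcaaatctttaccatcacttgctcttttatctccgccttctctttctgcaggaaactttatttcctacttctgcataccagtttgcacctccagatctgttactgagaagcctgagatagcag
The Cxcl10 window held 1 interferon-stimulated response element, 213 to 204 bases before the start, and 2 NF-kB matches at 159 to 150 and 104 to 95 bases before it. The Cxcl9 window held the letters TATAAA at 195 to 190 bases, and the Ackr3 window held them at 8 to 3 bases before the start. Among the 47 genes of the family with a RefSeq promoter entry, 9 (19.1%) held the NF-kB letters against 5.31% of all 27025 genes with such a window, and 15 (31.9%) held TATAAA against 14.3%. For the interferon-stimulated response element the counts were 3 genes (6.38%) against 3.46%, and for the gamma-activated sequence 4 genes (8.51%) against 8.13%. The matches describe letters only.

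Among the CXC ligands, Cxcl9 showed the clearest change. It is a ligand of Cxcr3 that draws activated T cells and is a classical target of interferon gamma. Cxcl9 (ENSMUSG00000029417, chromosome 5, 92469206 to 92475938, minus strand, build GRCm39) was at 4.05, 3.47 and 3.63 CPM in vehicle 1, 2 and 3 and at 27.3, 33.5 and 36.5 CPM in rebamipide 1, 2 and 3. The groups were far apart and each was tight, at 3.72 ± 0.296 and 32.4 ± 4.69 CPM (mean ± SD, n = 3 each), resting on 170 to 202 and 829 to 956 counts. The level was 8.72-fold higher with rebamipide (log2 fold change 3.12, SE 0.23, adjusted p = 0.00939). The log2 fold change stayed between 3.04 and 3.24 with any 1 library left out, although the adjusted p was 0.0747 without vehicle 2 and 0.0573 without rebamipide 2.

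The 2 genes beside Cxcl9 on chromosome 5, Cxcl10 and Cxcl11, encode the other ligands of Cxcr3 and were looked up after the Cxcl9 values were seen. Cxcl10 was at 2.84, 3.39 and 2.84 CPM with vehicle and 3.62, 2.49 and 1.18 CPM with rebamipide, so its groups overlapped (log2 fold change -0.31, SE 0.47, adjusted p = 0.641). Cxcl9 counts per Cxcl10 count were 1.42, 1.02 and 1.28 in the vehicle libraries and 7.54, 13.4 and 30.8 in the rebamipide libraries. Cxcl11 gave 6, 18 and 5 counts with vehicle and 2, 8 and 8 with rebamipide and was not tested. Cxcr3, their receptor, was at 0.521 to 1.75 CPM with vehicle and 0.153 to 1.42 CPM with rebamipide (adjusted p = 0.722). Both Cxcl10 and Cxcl11 lie inside Art3, on its opposite strand.

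Cxcl12, its signalling receptor Cxcr4 and its scavenging receptor Ackr3 form an axis that holds cells in their niches. Ackr3 (ENSMUSG00000044337, chromosome 1, 90131702 to 90144473, plus strand) removes Cxcl12 from the tissue by internalizing it. It was at 29.7, 44.4 and 64.3 CPM with vehicle and at 87.9, 192 and 123 CPM with rebamipide, so all rebamipide libraries were above all vehicle libraries. The rise was 2.91-fold (log2 fold change 1.54, SE 0.40, adjusted p = 0.0431). Its adjusted p was 0.0836 with total counts alone, where the log2 fold change was 0.90, and 0.0803 without rebamipide 3, and 0.0957, 0.153 and 0.142 without vehicle 1, vehicle 2 and rebamipide 2. Several marker lists were higher with rebamipide as well. The sum of 5 blood endothelium markers was 209, 310 and 493 CPM with vehicle and 976, 1120 and 1320 CPM with rebamipide. Of those 5, 3 were called higher, and Vwf had a log2 fold change of -0.19. The 5 adipocyte markers summed to 1310, 2340 and 3880 CPM with vehicle and 8950, 13300 and 15700 CPM with rebamipide. For the 4 brown adipocyte markers the sums were 25.3, 46.9 and 80.2 CPM with vehicle and 4250, 11800 and 9410 CPM with rebamipide. Blood markers also rose. The part of these lists in the rise of Ackr3 was not tested.

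Cxcl12 itself was at 188, 244 and 265 CPM with vehicle and at 329, 279 and 311 CPM with rebamipide. The libraries did not overlap but the difference was small (log2 fold change 0.40, SE 0.22, adjusted p = 0.22), and it turned to -0.21 both with total counts alone and with FPKM. Cxcr4 was at 10.9, 9.87 and 4.58 CPM with vehicle and at 7.31, 3.35 and 3.17 CPM with rebamipide (log2 fold change -0.87, adjusted p = 0.237). Per gene length, the FPKM of Ackr3 was 1.47, 2.43 and 7.58 times that of Cxcr4 in the vehicle libraries and 6.49, 30.9 and 21.1 times in the rebamipide libraries. The ratio in vehicle 3 lay within the rebamipide range.

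**Figure D2:**
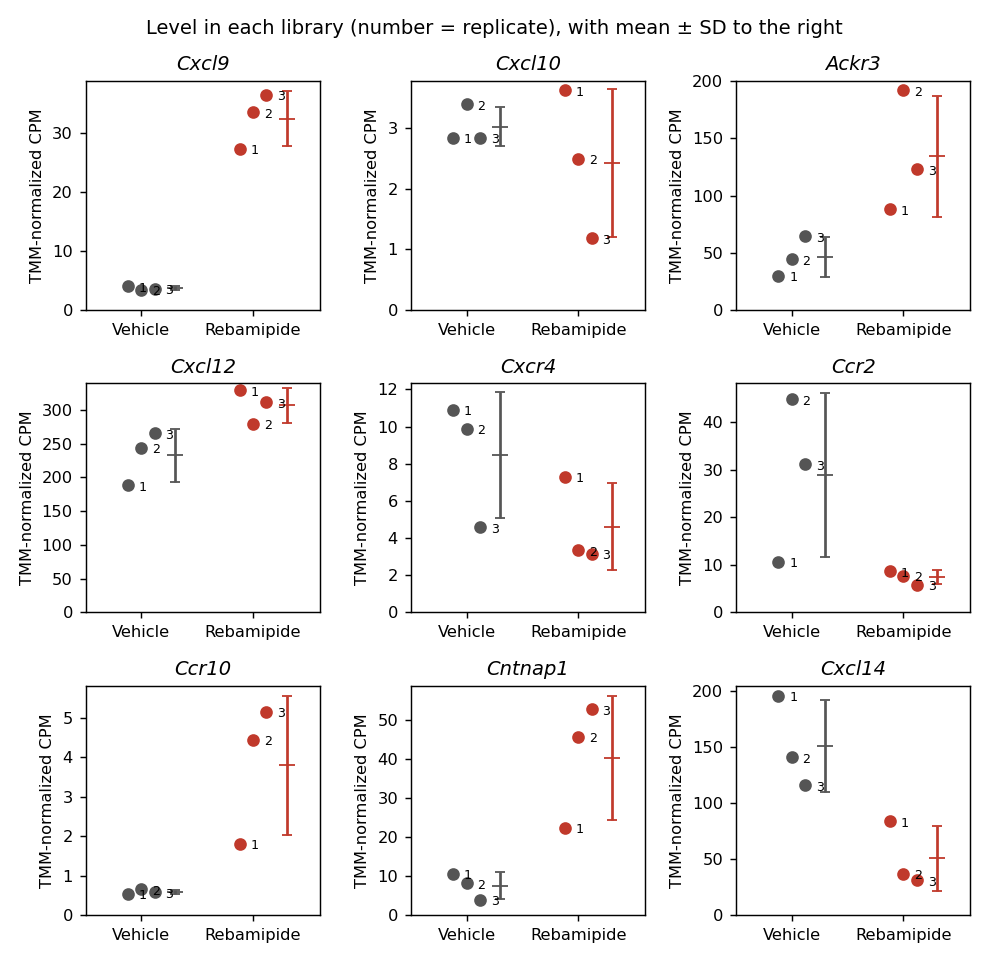
TMM-normalized CPM (vertical axis, from 0) of 8 chemokine and receptor genes and of Cntnap1 in each of the 3 vehicle (grey) and 3 rebamipide (red) libraries, with the mean and SD to the right of the points and the replicate number beside each point. Cxcl9 separates the groups with little spread, Cxcl10 and Cxcr4 overlap, and Ccr2 is high in vehicle replicates 2 and 3 only.

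Cxcl14, a ligand abundant in resting epithelia, was at 196, 141 and 116 CPM with vehicle and at 83.8, 36.8 and 31 CPM with rebamipide. The rebamipide libraries were all below the vehicle ones, with a log2 fold change of -1.58 (SE 0.44), and the adjusted p of 0.0517 lay just past the threshold. It passed in DESeq2 (adjusted p = 0.00523) and limma-voom (0.0368), and in edgeR it was 0.0113 without rebamipide 1 and 0.117 without rebamipide 3. Cxcl16, a membrane-bound ligand, was at 8.73, 21.0 and 32.0 CPM with vehicle and at 14.5, 9.82 and 5.08 CPM with rebamipide (log2 fold change -1.07, adjusted p = 0.214). Its receptor Cxcr6, found on tissue-resident T cells, was at 1.44, 5.16 and 5.41 CPM with vehicle and at 1.19, 0.779 and 0.305 CPM with rebamipide (log2 fold change -2.39, adjusted p = 0.0625, and 0.00552 in DESeq2). The receptor's groups did not overlap, although vehicle 1 and rebamipide 1 were close. Cxcr6 lies inside Fyco1 on the opposite strand, which was at 51.6, 127 and 127 CPM with vehicle and 141, 139 and 125 CPM with rebamipide.

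The CC ligands varied about as much between mice of a group as between the groups. Summed over the 24 genes they reached 226, 516 and 721 CPM in vehicle 1, 2 and 3 and 542, 181 and 93.7 CPM in rebamipide 1, 2 and 3. Of the 18 tested, 0 passed in edgeR, and 15 had negative and 3 positive log2 fold changes, from -2.59 to 2.00. Ccl28, higher, and Ccl27a and Ccl27b, lower, had unadjusted p-values of 0.0252, 0.0351 and 0.0404. DESeq2 called Ccl28 higher and Ccl27a lower among them, and limma-voom called 0. 

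Ccl8, an attractant of monocytes and T cells, had the highest FPKM of the family, 295 ± 97.0 with vehicle and 94.1 ± 134 with rebamipide (mean ± SD, n = 3 each). It was at 73.1, 146 and 147 CPM with vehicle and at 136, 22.6 and 0.992 CPM with rebamipide, a 137-fold range inside the treated group (log2 fold change -1.19, SE 1.35, adjusted p = 0.532). Ccl6, made by macrophages, was at 51.8, 115 and 152 CPM with vehicle and at 171, 45.4 and 25.0 CPM with rebamipide (log2 fold change -0.40, adjusted p = 0.715). For both genes rebamipide 1 was near or above the highest vehicle library, and rebamipide 3 was below the lowest. Ccl7, Ccl9, Ccl12 and Ccl22 had the same order inside the rebamipide group, with folds of 6.69 to 32.7 between rebamipide 1 and 3.

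Ccl2, the main attractant of monocytes, was at 3.02, 4.51 and 9.77 CPM with vehicle and at 6.22, 4.13 and 0.992 CPM with rebamipide (log2 fold change -0.61, adjusted p = 0.564). Ccl5, a product of T cells, was at 0.521, 0.772 and 1.03 CPM with vehicle and at 1.71, 1.09 and 1.45 CPM with rebamipide, where the groups came close without overlapping (log2 fold change 0.87, adjusted p = 0.185). These levels are low, 26 to 52 counts a library for Ccl5.

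Markers of macrophages and of leukocytes in general followed the same order of libraries. The sum of 8 macrophage and monocyte markers was 512, 1070 and 1140 CPM with vehicle and 1080, 450 and 290 CPM with rebamipide, and the sum of 5 leukocyte markers was 84.7, 186 and 228 CPM with vehicle and 191, 70.4 and 40.0 CPM with rebamipide. None of these 13 markers passed the test. The order was not particular to them. Summed, 6 fibroblast markers were at 12000, 13700 and 17700 CPM with vehicle and 15100, 3500 and 1850 CPM with rebamipide. The sum of 4 skeletal muscle markers was 3840, 16000 and 18900 CPM with vehicle and 24600, 5000 and 196 CPM with rebamipide. Blood endothelium markers ran the other way inside the rebamipide group, at 976, 1120 and 1320 CPM. The part of any of these lists in the spread of the ligands was not tested. Over the 46 genes the median SD of log2(CPM + 0.25) within a group was 0.81 with vehicle and 0.73 with rebamipide, against 0.35 and 0.38 over all genes. Vehicle 1 was the lowest vehicle library for 37 genes (80.4%, against 43.0% of all genes tested), and rebamipide 1 was the highest rebamipide library for 36 (78.3%, against 42.0%). Rebamipide 3 was the lowest of its group for 33 genes (71.7%, against 38.5%).

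**Figure D3:**
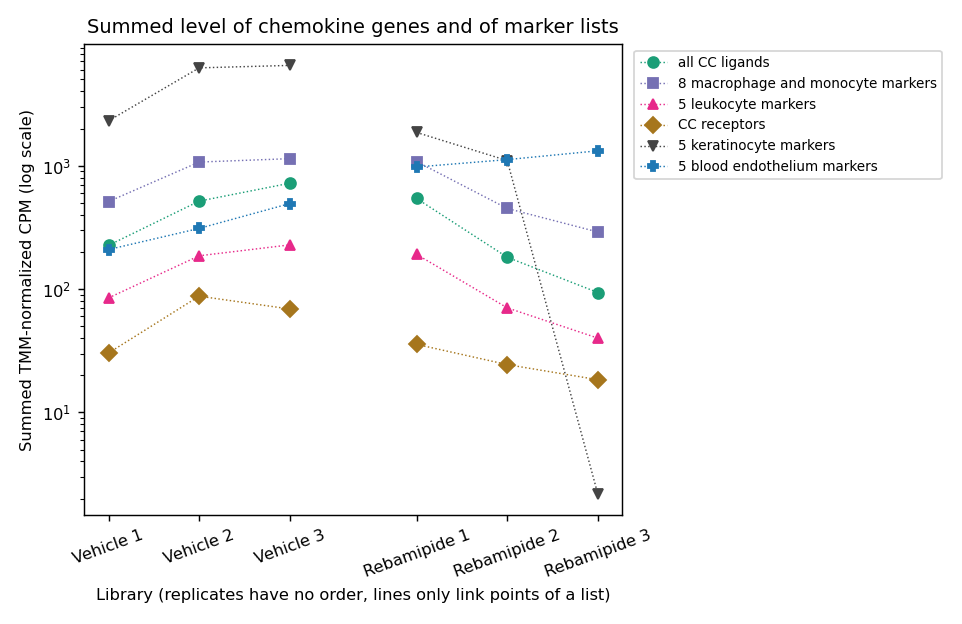
Summed TMM-normalized CPM (log scale) of the CC ligands, the CC receptors and 4 marker lists in each of the 6 libraries, with each list as a symbol and dotted lines that only link its points. CC ligands, macrophage markers and leukocyte markers keep the same order inside each group, keratinocyte markers drop to 2.18 CPM in rebamipide 3, and blood endothelium markers are higher in every rebamipide library.

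Among the CC receptors, Ccr2 fell and Ccr10 rose. Ccr2 (ENSMUSG00000049103, chromosome 9, 123901987 to 123913594, plus strand) is the receptor for Ccl2 on inflammatory monocytes. It was at 10.6, 44.9 and 31.2 CPM with vehicle and at 8.66, 7.72 and 5.76 CPM with rebamipide, a log2 fold change of -1.97 (SE 0.54, adjusted p = 0.0489). The groups did not overlap, but vehicle 1 was the closest to the rebamipide libraries. The adjusted p was 0.0725, 0.156 and 0.118 without rebamipide 1, 2 and 3, 0.161 and 0.0987 without vehicle 2 and 3, and 0.115 in limma-voom.

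Ccr10 (ENSMUSG00000044052, chromosome 11, 101063823 to 101066269, minus strand) is the receptor for Ccl27 and Ccl28 on skin-homing T cells and on plasma cells. It was at 0.541, 0.650 and 0.577 CPM with vehicle and at 1.81, 4.44 and 5.15 CPM with rebamipide, all rebamipide libraries being higher (6.42-fold, log2 fold change 2.68, SE 0.50, adjusted p = 0.0192). The gene lies inside Cntnap1 on the opposite strand, a neuronal adhesion gene that also rose, from 10.6, 8.08 and 3.93 CPM to 22.4, 45.6 and 52.7 CPM (log2 fold change 2.41, SE 0.49, adjusted p = 0.0238). Ccr10 counts per 100 Cntnap1 counts were 5.08, 8.04 and 14.7 with vehicle and 8.08, 9.74 and 9.78 with rebamipide, so the ratio overlapped between groups. Whether strand was used in counting is not given in the sources used here, and reads of the 2 genes cannot be told apart. The adjusted p for Ccr10 was 0.0525 without rebamipide 3, and 0.0536, 0.0953 and 0.0863 without vehicle 1, vehicle 2 and rebamipide 2.

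None of the 3 ligands of Ccr10 passed in edgeR on the TMM scale with all libraries, while in DESeq2 Ccl27a (adjusted p = 0.0326) and Ccl28 (adjusted p = 0.0370) did. With FPKM, Ccl27a (0.0475) and Ccl27b (0.0366) passed, and with total counts alone Ccl27a (0.0420). Ccl27a, a keratinocyte chemokine, was at 14.7, 58.7 and 61.1 CPM with vehicle and at 18.1, 18.3 and 9.81 CPM with rebamipide (log2 fold change -1.54, SE 0.58, adjusted p = 0.101), and passed without vehicle 1 (log2 fold change -1.98, adjusted p = 0.0344). Ccl28, a mucosal epithelial chemokine, was at 0.521, 0.122 and 0.214 CPM with vehicle and at 0.856, 0.857 and 1.76 CPM with rebamipide (log2 fold change 2.00, SE 0.68, adjusted p = 0.0820). Ccl27b, a copy of Ccl27a, was at 0.280, 1.14 and 1.15 CPM with vehicle and at 0.329, 0.0390 and 0.0382 CPM with rebamipide (log2 fold change -2.59, adjusted p = 0.110), and passed without rebamipide 1 (log2 fold change -4.36, adjusted p = 0.0372). Reads of the near-identical copies could be split between them, so the values of each copy are uncertain. Keratinocyte markers and Ccl27a were both lowest in rebamipide 3, but to different extents. The 5 keratinocyte markers summed to 1860, 1100 and 2.18 CPM in rebamipide 1, 2 and 3, whereas Ccl27a kept 257 counts in rebamipide 3. The part of keratinocytes in the values of Ccl27a was not tested.

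Ccr4 and Ccr8, receptors of regulatory and skin-homing T cells, had the largest negative fold changes among the receptors. Ccr4 was at 6.79, 8.71 and 5.99 CPM with vehicle and at 1.45, 0.935 and 0 CPM with rebamipide (log2 fold change -3.16, SE 1.16, adjusted p = 0.0974), with no overlap. It passed in edgeR without rebamipide 3 (log2 fold change -2.57, adjusted p = 0.0322), and with all libraries in DESeq2 (adjusted p = 0.0104) and with FPKM (0.00617). Ccr8 was at 0.280, 0.873 and 0.641 CPM with vehicle and at 0.0329, 0.234 and 0 CPM with rebamipide (log2 fold change -2.74, adjusted p = 0.118, and 0.0279 with FPKM), resting on 14 to 43 counts with vehicle and on 1, 6 and 0 counts with rebamipide. Ccr1, on monocytes and neutrophils, was at 3.02, 8.0 and 8.42 CPM with vehicle and at 6.26, 1.48 and 0.687 CPM with rebamipide (log2 fold change -1.20, adjusted p = 0.330), and passed without rebamipide 1 (log2 fold change -2.57, adjusted p = 0.0460). The T cell markers Cd3e, Cd3g and Cd2 summed to 7.67, 11.5 and 23.6 CPM with vehicle and 12.2, 5.81 and 2.79 CPM with rebamipide, with 0 of 3 called.

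The axis that guides dendritic cells to lymph nodes pairs the ligands Ccl19 and Ccl21 with the receptor Ccr7 and the scavenger Ackr4. Ccl21a, made by lymphatic vessels, was at 17.6, 37.9 and 67.1 CPM with vehicle and at 31.2, 13.8 and 2.75 CPM with rebamipide (log2 fold change -1.36, adjusted p = 0.284). Its near-identical copies Ccl21b and Ccl21d gave at most 2 and 0 counts, so the split of reads among the copies is uncertain. Ccl19 stayed at 1.26 CPM or less in every library (log2 fold change -1.05, adjusted p = 0.446), and Ccr7 ranged from 0.481 to 5.13 CPM with vehicle and from 0.725 to 1.61 CPM with rebamipide (log2 fold change -1.06, adjusted p = 0.389). Both of these turned positive, to 0.18 and 0.19, without vehicle 3.

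Ackr4 was at 8.25, 22.1 and 18.5 CPM with vehicle and at 7.80, 3.70 and 0.801 CPM with rebamipide (log2 fold change -1.99, SE 0.82, adjusted p = 0.125, and 0.0326 in DESeq2). The groups did not overlap but vehicle 1 and rebamipide 1 were close, and the gene lies inside Acad11 on the opposite strand, which rose (log2 fold change 2.85, adjusted p = 0.00993). Lymphatic endothelium markers (4 genes) summed to 51.4, 67.1 and 118 CPM with vehicle and 75.0, 34.8 and 28.8 CPM with rebamipide, and 6 Langerhans and dendritic cell markers to 139, 186 and 238 CPM with vehicle and 90.1, 41.8 and 4.54 CPM with rebamipide. None of these 10 markers passed the test. The lymphatic genes did not share 1 direction. Flt4 was at 5.11, 9.02 and 17.7 CPM with vehicle and 18.8, 16.2 and 19.4 CPM with rebamipide (log2 fold change 0.77, adjusted p = 0.254). Lyve1, Prox1 and Pdpn had log2 fold changes of -0.99, -1.59 and -1.49. The epithelial gene Epcam made up most of the dendritic sum in vehicle 1, vehicle 2 and rebamipide 2, and the other 5 genes summed to 28.3, 74.9 and 121 CPM with vehicle and 56.9, 19.6 and 4.39 CPM with rebamipide, so that their groups overlapped. Cd207, listed here among the Langerhans and dendritic cell markers, was at 0 in rebamipide 3.

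Cx3cl1, an endothelial and neuronal adhesion chemokine, was at 15.0, 8.61 and 9.11 CPM with vehicle and at 10.2, 8.89 and 10.5 CPM with rebamipide (log2 fold change -0.15, SE 0.30, adjusted p = 0.737). Its receptor Cx3cr1, carried by monocytes and macrophages, was at 1.94, 3.61 and 5.45 CPM with vehicle and at 4.15, 3.47 and 3.05 CPM with rebamipide (log2 fold change -0.04, SE 0.45, adjusted p = 0.947). Both pairs of groups overlapped, and the sign of Cx3cr1 changed with several settings. The span of Cx3cr1 shares bases with Gorasp1, Csrnp1 and Xirp1 on the same strand and with Wdr48 and Ttc21a on the opposite strand.

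Xcl1, released by T and natural killer cells, was at 0.401, 0.629 and 0.855 CPM with vehicle and at 0.329, 0.273 and 0.229 CPM with rebamipide (log2 fold change -1.17, adjusted p = 0.134). Its receptor Xcr1, which marks cross-presenting dendritic cells, was at 0.841, 2.58 and 2.91 CPM with vehicle and at 0.856, 0.468 and 0.382 CPM with rebamipide (log2 fold change -1.88, SE 0.63, adjusted p = 0.0786, and 0.0245 in DESeq2). The ligand's groups did not overlap and the receptor's did, by vehicle 1 alone. Cxcr2, the neutrophil receptor, was at 1.08, 4.91 and 9.56 CPM with vehicle and at 1.45, 0.935 and 0.382 CPM with rebamipide (log2 fold change -2.48, adjusted p = 0.0918, and 0.0142 in DESeq2). Ackr1, an atypical receptor that binds chemokines on venules and red cells, was at 4.73, 11 and 20.2 CPM with vehicle. With rebamipide Ackr1 was at 12.2, 2.30 and 1.91 CPM (log2 fold change -1.13, adjusted p = 0.367). The span of Ackr1 shares bases with Cadm3 on the same strand. Cadm3 ranked the 6 libraries in the same order and had the same log2 fold change (-1.13, adjusted p = 0.338). The part of Cadm3 reads in the values of Ackr1 was not tested.

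**Figure D4:**
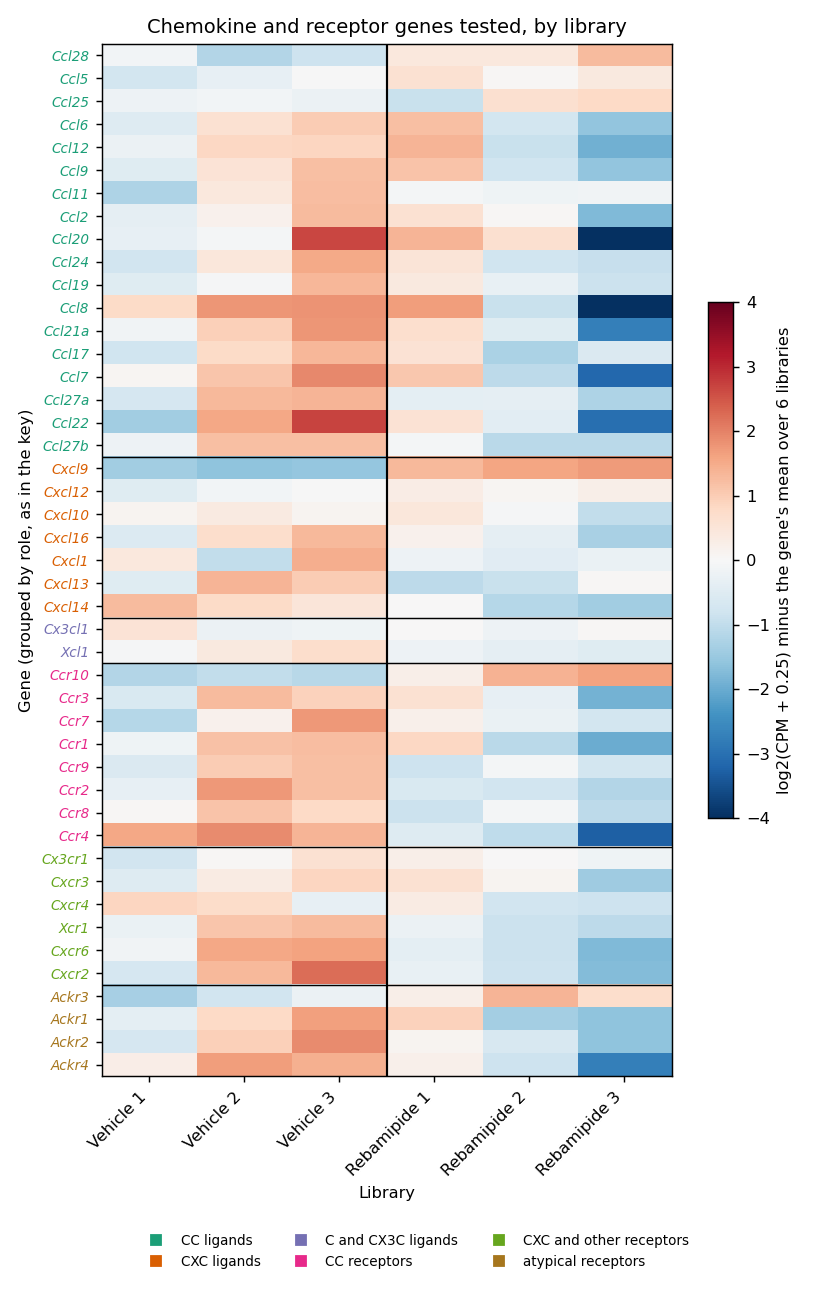
Each row is 1 of 45 genes tested, grouped and coloured by role, and each column is 1 library. Colour gives log2(CPM + 0.25) minus the mean of that gene over the 6 libraries, and vehicle 1 is pale or blue for many genes that are red in vehicle 2, vehicle 3 and rebamipide 1, while rebamipide 3 is blue for most.

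The other 16 genes did not pass the filter and were not tested. Ccl21d, Ccl26, Cxcr1 and Cxcl15 were at 0 in every library, which allows up to 3 counts in each. The largest count of any of the others in 1 library was 30, for Ccl1. The neutrophil-drawing ligands Cxcl2, Cxcl3 and Cxcl5 reached at most 22, 2 and 8 counts, and the macrophage ligands Ccl3 and Ccl4 at most 10 and 9. Ccr6, the receptor for Ccl20, gave 2, 21 and 12 counts with vehicle and 0, 0 and 1 with rebamipide. Cxcr5, a B cell receptor, gave 0, 0 and 2 counts with vehicle and 8, 8 and 4 with rebamipide, and overlaps Bcl9l on the opposite strand. These genes are too shallow for a statement on direction.

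Genes that act with the family were counted from lists, against a background of 14.1% of all genes tested that rose and 6.51% that fell. Of 9 related genes in the table (other chemoattractants, their receptors, Dpp4, which trims chemokines, and Xcl1 and Xcr1 once more), 0 rose and 1 fell. That gene was Dpp4, at 44.1, 57.0 and 60.5 CPM with vehicle and 12.1, 6.24 and 2.21 CPM with rebamipide (log2 fold change -2.98, SE 0.61, adjusted p = 0.0238). Of 24 G proteins and effectors, 0 rose and 1 fell, Gnai3, an inhibitory G protein subunit at 175, 181 and 183 CPM with vehicle and 36.0, 58.2 and 40.1 CPM with rebamipide (log2 fold change -2.0, SE 0.24, adjusted p = 0.00939). Both of these separated the groups widely, while the medians of their lists were -0.42 and -0.28.

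Of 10 genes tested that end receptor signalling, 3 rose and 0 fell, against 14.1% and 6.51% of all genes, with a median log2 fold change of -0.03. Grk3, a receptor kinase, was at 5.21, 11 and 15.1 CPM with vehicle and 82.6, 221 and 234 CPM with rebamipide (log2 fold change 4.10, SE 0.59, adjusted p = 0.0110). Rgs2 and Grk5 had log2 fold changes of 2.62 (adjusted p = 0.0141) and 1.64 (adjusted p = 0.0185). These genes also act on many receptors outside this family.

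Among cytokine and transcription factor genes, Irf1, an interferon-induced factor, was at 14.5, 23.1 and 31.9 CPM with vehicle and 42.5, 33.9 and 39.1 CPM with rebamipide (log2 fold change 0.73, adjusted p = 0.138). Irf7 was at 105 CPM in rebamipide 1 and at 11.5 to 14.7 CPM in the other 5 libraries. Interferon gamma itself (Ifng) was not tested, at 0.162 CPM or less in every library, and Il17a was at 0 in all 6.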

How the data were processed

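Full-thickness dorsal skin of 3 vehicle-treated and 3 rebamipide-treated mice was sequenced as poly(A) RNA. The authors deposited raw read counts per gene, without normalization, and FPKM, which equal counts divided by gene length and by the library's summed counts (largest difference 4.7e-11). The submitters' processing notes name fastp 0.22.0, HISAT2 2.1.0, HTSeq 0.9.1 and GRCm39. From 73.8% to 76.3% of counts from 1 to 20 were even, as when both mates of a pair are counted, so limits on counts cover counting error only. GO and KEGG annotations in the table were not used.

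Counts were tested in R 4.3.3 with edgeR 4.0.16 (TMM, filterByExpr, quasi-likelihood, two-sided, Benjamini-Hochberg over 14875 genes), checked on simulated counts first. CPM are TMM-normalized and FPKM compare genes. SE is the log2 fold change over the root of F. Replicates differed beyond sampling noise (chi-square divided by its degrees of freedom, 83.1 to 742.3). Alternatives used DESeq2 1.42.0, limma 3.58.1 (voom, and log2(FPKM + 1)), RLE, upper quartile or total counts, no filter and at least 10 counts in every sample. Others were the study's thresholds applied to the edgeR fit, a replicate block and omission of each library. DESeq2 and limma-voom with a library left out were added after the data were seen.

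The genes and lists were chosen with earlier results of these data known. Named in full were genes with an adjusted p-value under 0.05, the 5 largest fold changes each way, the 3 highest mean FPKM in each role, and the ligand and receptor pairs Cxcl12 with Cxcr4 and Ackr3, Ccl19 and Ccl21 with Ccr7 and Ackr4, Ccl27 and Ccl28 with Ccr10, Cx3cl1 with Cx3cr1, Ccl2 with Ccr2, Cxcl16 with Cxcr6 and Xcl1 with Xcr1. From the marker and pathway lists, no more than 4 genes of lowest p-value each were named. Other genes were named after their values were seen. Some items are not reported here, and 45 of the tested genes are plotted.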

Additional observations from a re-analysis of the deposited data

How the results depend on the processing

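The 4 calls depended on the fit. Cxcl9 kept its call under 13 of 15 alternatives, Ccr10 under 11, Ackr3 under 8 and Ccr2 under 7, all with the same sign. The number of chemokine and receptor genes called lower, 1 in the edgeR fit reported, was 2 with RLE normalization, 7 with total counts alone, 0 without the filter, 3 with at least 10 counts in every sample, 8 with DESeq2, 11 with limma on log2(FPKM + 1) and 10 with the study's thresholds. With 1 library left out it ran from 0 to 3, and the number called higher, 3 in that fit, from 0 to 4. DESeq2 called 8 lower with all libraries and 1 to 21 with 1 left out, where 9.48% (without vehicle 2) and 27.3% (without rebamipide 1) of all genes were called lower. limma-voom called 3 higher and 1 lower with all libraries, and 1 to 3 higher and 0 to 5 lower with 1 left out, where 1.40% to 18.1% of all genes were higher and 0.0468% to 9.16% lower. Over all genes, 2093 were higher and 968 lower. The number higher was 1258 with total counts alone and 1379 with FPKM, and 0 to 2810 with 1 library left out. The number lower was 3752 with total counts alone, 1512 with at least 10 counts, 2534 with DESeq2, 4692 with FPKM and 2161 with the study's thresholds, and 0 to 1971 with 1 library left out. Without vehicle 2 or rebamipide 2, edgeR called 0 and 1 genes of the whole table, with 4116 and 4062 at an unadjusted p under 0.05. The cause was not tested. The median log2 fold change of the chemokine and receptor genes ranged from -1.67 to -0.54.

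Signs changed for a few genes that were not called in the edgeR fit reported. With 1 library left out, the log2 fold change ran from -1.90 to 0.18 for Ccl19, from -1.16 to 0.03 for Ccl2, from -1.57 to 0.19 for Ccr7 and from -0.38 to 0.37 for Cx3cr1, each highest without vehicle 3. It ran from -1.59 to 0.03 for Ccl6, highest without rebamipide 3, and from -0.31 to 0.13 for Cx3cl1, highest without vehicle 1. Cx3cr1 was 0.08 in limma-voom and 0.06 with the replicate block, and Cxcl12 was -0.21 with total counts alone and with FPKM. The cause was not tested.

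Replicate numbers did not pair the samples, since the deviations of same-numbered libraries correlated at -0.016, -0.038 and 0.003. With a replicate block, 3 of these genes were higher and 1 lower (Cxcl14, with Ccr2 at an adjusted p of 0.123), 2287 genes of the table were called against 3061 without it, and no library correlated best with its own number.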
